A study of Rattus norvegicus with 23 samples.

Results

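Rat PC12 cells carrying α1ACT were set against cells carrying an empty vector at 10 d after splitting, the last of 4 times sampled in the series. The libraries were chosen by their labels alone and number 6 of 23, with 3 libraries of the α1ACT line and 3 of the vector line. PC12 is a pheochromocytoma line of adrenal chromaffin origin. The α1ACT line stably expressed, from pcDNA3, α1ACT with 11 polyglutamine repeats and a C-terminal 3xFlag tag, and the vector line stably carried empty pcDNA3. Both had been selected with G418 and were grown in F-12K medium with horse and fetal bovine serum on poly-L-lysine. How many stable clones stand behind each line is not stated in the labels, and an effect of α1ACT and a difference between clones cannot be told apart. Nor do the labels call the replicates separate cultures; the p-values here measure only how these samples spread, which may be technical.

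α1ACT is a transcription factor translated from within the mRNA of CACNA1A, the gene of a neuronal calcium channel subunit. A miRNA is a short RNA that lowers the output of mRNAs whose sites pair with its seed, bases 2 to 8 from its 5′ end. Mature miRNAs with 1 seed are read as a family with largely shared targets, and hairpins that lie close together are often made from 1 transcript.

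The total was between 2056181 and 5070120 counts per library of 10 d, and the 10 most abundant entries held between 71.7% and 72.8% of them. Endocrine miR-375-3p led in every library, with 13.8% to 15.1% of counts in the α1ACT line and 13.4% to 15.01% in the vector line. By contrast miR-7a-5p, also a miRNA of endocrine cells, stayed at 5.78 to 8.43 CPM in the α1ACT line and 2.85 to 12.5 CPM in the vector line (CPM, counts relative to library size, scaled by trimmed mean of M values). Markers of other cell types were partly at or near 0 and partly present. No counts at all were found for miR-145-5p (smooth muscle) and miR-223-3p (myeloid cells), and miR-451-5p (red cells) had 9 counts over the 6 libraries. Endothelial miR-126a-5p was present at 70.6 to 95.2 CPM in the α1ACT line and 78.5 to 107 CPM in the vector line, above miR-181a-5p. Mesenchymal miR-199a-3p was present at 12.7 to 15.1 CPM in the α1ACT line and 9.63 to 16.1 CPM in the vector line, and miR-143-3p, described below, was more abundant. The part of these markers in the results was not tested.

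One library is in doubt. In the second deposited table, made with Chimira, the columns named vector 10 d replicate 2 and vector 6 h replicate 2 carried each other's profiles. Over 98 miRNAs the sRNAbench column vector 10 d replicate 2 lay at a root mean square distance of 0.0271 on the log2 scale from the Chimira column vector 6 h replicate 2. It lay at 0.372 from the Chimira column of its own name. The sRNAbench names were used, and values without this library and with the pair exchanged stand beside the results that rest on it.

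The mature sequences of the 4 miRNAs that passed the test are shown first, with the relatives against which each is read (RefSeq, GRCr8; 5′ to 3′, seed in capitals). In all, 49 of the 55 miRNAs that the naming rule selected had a sequence in that table.
miR-181a-5p: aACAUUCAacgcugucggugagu
miR-181b-5p: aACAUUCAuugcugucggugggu
miR-181c-5p: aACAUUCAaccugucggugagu
miR-181d-5p: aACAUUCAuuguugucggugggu
miR-9a-5p: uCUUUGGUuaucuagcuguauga
miR-10a-5p: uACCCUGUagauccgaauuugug
miR-10b-5p: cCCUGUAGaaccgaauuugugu
miR-100-5p: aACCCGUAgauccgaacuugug
miR-99b-5p: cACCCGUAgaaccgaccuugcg

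The 4 miR-181 members share 1 seed, as do miR-100-5p and miR-99b-5p. RefSeq begins miR-10b-5p further along than miR-10a-5p, so their annotated seeds are not the same. Mature miR-181a-5p is made at chr3:43025601-43025623 and at chr13:52037081-52037103, both on the plus strand, and each of its hairpins has a miR-181b hairpin within 10 kb. The copy on chromosome 3 lies within the span of Nr6a1. For miR-10a-5p the position is chr10:81779730-81779752 (plus strand), within 10 kb of Hoxb3 and Hoxb4. For miR-100-5p it is chr8:50798307-50798328 (plus strand), within 10 kb of let-7a-2. For miR-9a-5p there are 3 positions, 2 of them on chromosome 2 and 1 on chromosome 1.

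Few miRNAs were called between the lines at 10 d, and none of those called was among the 10 most abundant. miR-181a-5p and miR-9a-5p rose in the α1ACT line, and miR-10a-5p and miR-100-5p fell. Over 269 miRNAs these were the only calls of edgeR's quasi-likelihood test at a Benjamini-Hochberg adjusted p under 0.05. They made up 1.49% of those tested, with 2 higher (0.743%) and 2 lower (0.743%). The unadjusted p was under 0.05 for 40 (14.9%), of which 14 were higher (5.2%) and 26 lower (9.67%). The libraries of the lines did not overlap for 67 miRNAs (24.9%), of which 29 were higher (10.8%) and 38 lower in the α1ACT line (14.1%). Differences were small in general: the median absolute log2 fold change was 0.19, and 7 miRNAs reached 1, of which 4 had a mean of at least 10 CPM. Positive and negative log2 fold changes were nearly balanced, at 48.3% and 51.7% of those tested.

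**Figure D1:**
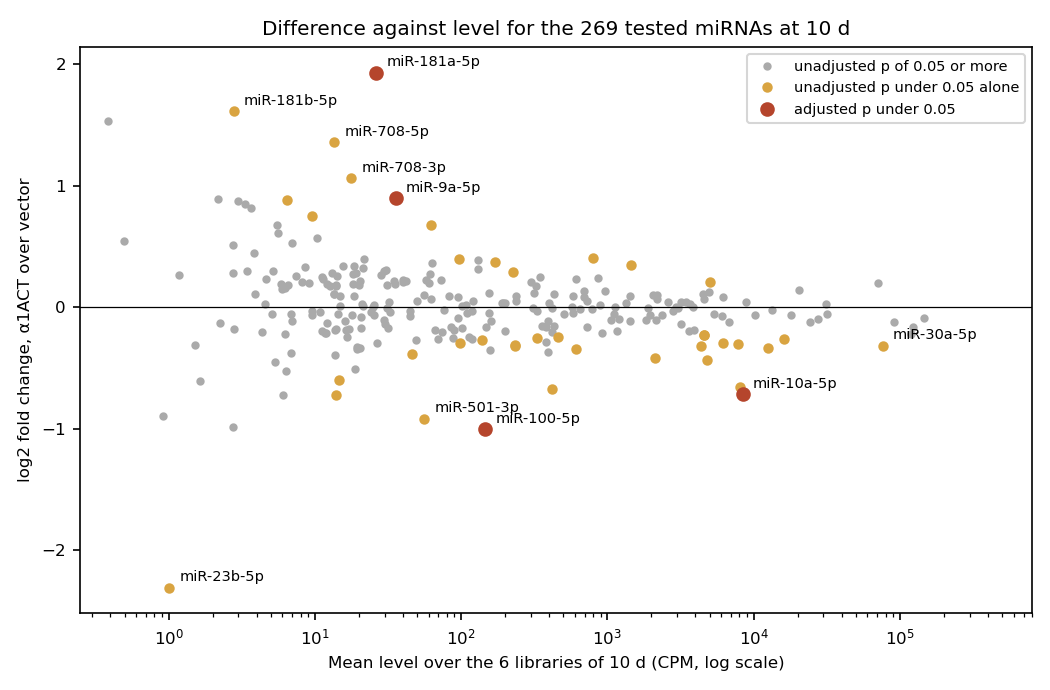
Log2 fold change of the α1ACT line over the vector line at 10 d (y) against mean level in CPM over the 6 libraries (x, log scale), 1 point for each of the 269 tested miRNAs. The 4 miRNAs with an edgeR adjusted p under 0.05 are red; miR-181a-5p at 1.93 lies highest of these and miR-100-5p at -1.002 lowest, while the most abundant miRNAs lie close to 0.

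These calls hung on single libraries. Without vector replicate 3 edgeR's test called 0 miRNAs (34 at an unadjusted p under 0.05), and without α1ACT replicate 1 or without α1ACT replicate 3 it called 1 each, miR-181a-5p. Without vector replicate 1 it called 2, miR-181a-5p and miR-10a-5p. Leaving out the doubted vector replicate 2 gave 5, the same 4 and miR-138-5p, and exchanging the pair of vector columns gave 3, without miR-9a-5p. The signs of the 4 were kept in each of these fits.

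miR-181a-5p, a regulator of lymphocyte and neural development, showed the largest rise. It stood at 48.7, 29.6 and 47.2 CPM in the α1ACT libraries, against 14.8, 9.63 and 8.27 CPM in the vector libraries. The groups did not overlap, and the lowest α1ACT library held 2 times the level of the highest vector library (29.6 against 14.8 CPM). Behind these levels were 254, 91 and 98 counts in the α1ACT line and 59, 28 and 29 counts in the vector line. The fold was 3.81 (log2 fold change 1.93, SE 0.351, edgeR adjusted p = 0.00282). It was 1.92 on the log2 scale without vector replicate 2 (edgeR adjusted p = 0.0234) and 1.95 with the pair exchanged (0.00230). Without vector replicate 3 the edgeR adjusted p was 0.0636.

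The rise of miR-181a-5p was not seen in miR-181c-5p or miR-181d-5p, the abundant members of its seed family. miR-181c-5p stood at 10779, 9585 and 9441 CPM in the α1ACT line and 11394, 10161 and 9553 CPM in the vector line. miR-181d-5p averaged 2928 ± 85.4 CPM in the α1ACT line and 2929.5 ± 329 CPM in the vector line (SD, n = 3 each). Summed over the 4 members, the level was 13840.1, 12555 and 12333 CPM in the α1ACT line and 14026, 13443 and 12465 CPM in the vector line. miR-181a-5p was 0.236% to 0.383% of that sum in the α1ACT line and 0.0663% to 0.106% in the vector line. At such shares the sum follows miR-181c-5p and miR-181d-5p and could not show a rise of miR-181a-5p. In a fit of counts summed by seed, a table added after the data were seen, the log2 fold change of this family came to -0.04 (SE 0.0941, edgeR adjusted p = 0.863).

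The scarce miR-181b-5p stood at 3.83, 3.25 and 5.78 CPM in the α1ACT line and 1.76, 0.688 and 1.43 CPM in the vector line, without overlap (log2 fold change 1.61, edgeR adjusted p = 0.269). Its sequence is 1 edit away from that of miR-181d-5p, whose level was 1050.1 times higher, and miR-181a-5p is 1 edit away from miR-181c-5p, whose level was 385 times higher. How reads of such near-identical sequences were shared out by the authors' counting was not tested, so both scarce levels are uncertain. The abundant relatives stood at similar levels in the lines, as given above.

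**Figure D2:**
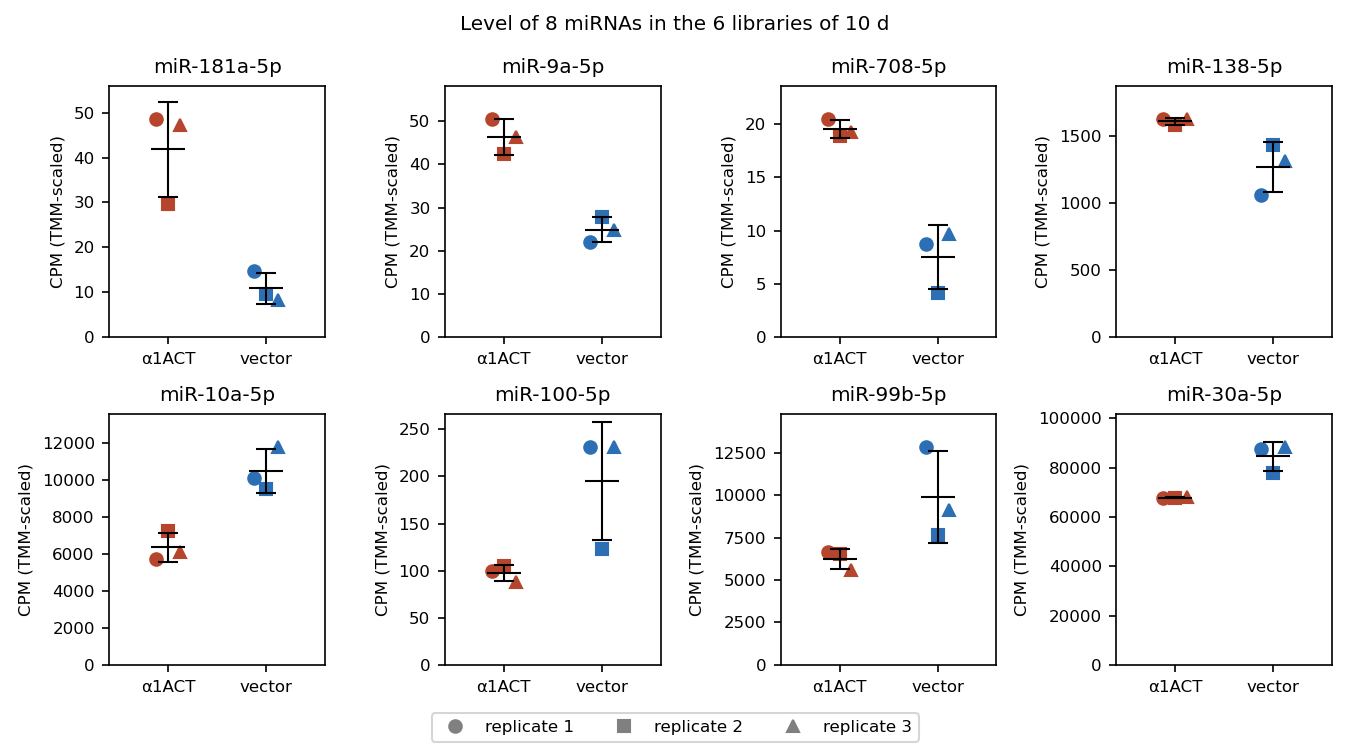
Level in CPM (y) of 8 miRNAs in each library of the α1ACT line (left, red) and the vector line (right, blue) at 10 d; symbols give the replicate, and bars the mean and SD of 3 libraries. The lines do not overlap in any panel; miR-181a-5p, miR-9a-5p, miR-10a-5p and miR-100-5p passed the test and the other 4 did not.

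miR-9a-5p, which acts in neural progenitors and neurons, stood at 50.6, 42.3 and 46.2 CPM in the α1ACT line and at 22.1, 27.9 and 24.8 CPM in the vector line. All α1ACT libraries were above all vector libraries. The fold was 1.86 (log2 fold change 0.90, SE 0.233, edgeR adjusted p = 0.0415). It passed without vector replicate 2 (1.05, edgeR adjusted p = 0.0260) but not with the pair exchanged (0.79, 0.0851). This call rests on the sRNAbench table alone: over the 6 libraries that table holds 746 counts of miR-9a-5p, and the Chimira table holds 0.

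Most neuronal entries had a positive difference, but miR-9a-5p alone passed. Of 21 tested, 1 rose (0.743% of all tested) and none fell. An unadjusted p under 0.05 with a positive difference was found for 3 (5.2% of all tested). In all, 18 of 21 differences were positive (48.3% of all tested). The 3 negative ones were miR-128-1-5p (log2 fold change -0.39, lower without overlap), miR-128-3p (-0.11) and miR-218a-1-3p (-0.05). Some of the 21 come from the same hairpin, such as miR-132-3p and miR-132-5p, and are not independent. The median log2 fold change of the 21 was 0.24, against -0.01 over all 269. miR-138-5p, a miRNA of dendrites, stood at 1628, 1585 and 1632 CPM in the α1ACT line and at 1065, 1435 and 1313 CPM in the vector line. Its libraries did not overlap, and the vector libraries were the more spread (log2 fold change 0.35, edgeR adjusted p = 0.123). The edgeR adjusted p became 0.0234 without vector replicate 2 and 0.0608 with the pair exchanged. Without vector replicate 1, the lowest library, the log2 fold change was 0.24 (edgeR adjusted p = 0.477). miR-598-3p stood at 187.7, 197.2 and 188.4 CPM in the α1ACT line and 153.01, 134.9 and 154.8 CPM in the vector line (log2 fold change 0.37, edgeR adjusted p = 0.158). miR-488-3p, whose hairpin lies within the span of the neuronal gene Astn1, averaged 12.3 ± 1.95 and 8.30 ± 0.859 CPM in the α1ACT and vector lines (SD, n = 3 each). Its edgeR adjusted p was 0.575. The CREB-responsive miR-132-3p averaged 146 ± 42.1 CPM in the α1ACT line and 117 ± 5.55 CPM in the vector line, with overlap (edgeR adjusted p = 0.417).

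miR-10a-5p, encoded among the Hoxb genes, stood at 5744, 7253 and 6106 CPM in the α1ACT line and at 10122, 9487 and 11803 CPM in the vector line. Every α1ACT library was lower than every vector library. The log2 fold change was -0.72 (SE 0.150, edgeR adjusted p = 0.00899). It was -0.72 without vector replicate 2 (edgeR adjusted p = 0.0234) and -0.66 with the pair exchanged (0.0405). It lost its call without vector replicate 3 (edgeR adjusted p = 0.102).

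The other arm of the hairpin, miR-10a-3p, stood at 5.36, 4.23 and 3.85 CPM in the α1ACT line and 8.03, 7.91 and 6.84 CPM in the vector line, also without overlap (log2 fold change -0.72, edgeR adjusted p = 0.358). The far more abundant miR-10b-5p, encoded within the span of Hoxd4, stood at 94434, 126193 and 111648 CPM in the α1ACT line. In the vector line it stood at 125209, 125075 and 136343 CPM, so the groups overlapped (log2 fold change -0.22, edgeR adjusted p = 0.670). miR-10a-5p was 5.19% to 5.73% of the sum of both 5p arms in the α1ACT line and 7.05% to 7.97% in the vector line. The 6 tested entries from the Hox clusters are 4 of miR-10, miR-196a-5p and miR-615. Of these 1 fell (0.743% of all tested), 4 differences were negative (51.7% of all tested) and 2 were positive (48.3%). The median log2 fold change was -0.20, against -0.01 over all tested.

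miR-100-5p, made from the same region as a let-7 hairpin, stood at 99.6, 104 and 88.2 CPM in the α1ACT line and at 231.3, 122.5 and 231.7 CPM in the vector line. The groups did not overlap, and vector replicate 2, the doubted library, lay closest to the α1ACT line. The log2 fold change was -1.002 (SE 0.214, edgeR adjusted p = 0.00927). It was -1.18 both without vector replicate 2 (edgeR adjusted p = 0.000462) and with the pair exchanged (0.00230). Its call was lost without vector replicate 3 (edgeR adjusted p = 0.102).

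Most relatives of miR-100-5p had negative, smaller differences that did not pass. Of 8 tested miR-99, miR-100 and miR-125 entries 1 fell (0.743% of all tested), 5 had an unadjusted p under 0.05 and a negative difference (9.67% of all tested), and 7 differences were negative (51.7% of all tested). The median log2 fold change was -0.36. The scarce miR-125b-2-3p went the other way, at 2.60 to 3.06 CPM in the α1ACT line and 0.688 to 2.57 CPM in the vector line, without overlap (log2 fold change 0.89, edgeR adjusted p = 0.662). miR-99b-5p, with the seed of miR-100-5p, stood at 6662, 6529 and 5575 CPM in the α1ACT line and at 12862, 7647 and 9144 CPM in the vector line. These did not overlap (log2 fold change -0.66, edgeR adjusted p = 0.123; 0.0520 with the pair exchanged). Summed over this seed, the level averaged 6353 ± 601 CPM in the α1ACT line and 10079.5 ± 2731 CPM in the vector line (SD, n = 3 each, edgeR adjusted p = 0.125). Of that sum miR-100-5p was 1.47% to 1.57% in the α1ACT line and 1.58% to 2.47% in the vector line. The sum thus follows miR-99b-5p and says little of miR-100-5p.

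Of the miR-125 arms, which are linked to differentiation, miR-125a-5p averaged 4104 ± 255 CPM in the α1ACT line and 5547 ± 403 CPM in the vector line. miR-125b-5p averaged 1817 ± 145.05 CPM in the α1ACT line and 2433 ± 267 CPM in the vector line (SD, n = 3 each). Neither overlapped, with log2 fold changes of -0.43 and -0.42 (edgeR adjusted p = 0.309 for both). The hairpins of miR-99b, let-7e and miR-125a lie within 10 kb of each other in the span of Spaca6. Between these neighbours, let-7e-5p averaged 17472 ± 1446 CPM in the α1ACT line and 18316 ± 1867 CPM in the vector line, with overlap (log2 fold change -0.07). The 3p arms miR-99b-3p and miR-125a-3p had log2 fold changes of -0.29 and -0.26, neither passing.

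The let-7 family as a whole stayed close to even. Of 19 tested entries 0 were called by edgeR's test, and 0 had an unadjusted p under 0.05. Their median log2 fold change was 0.04. Summed over the 9 entries with the let-7 seed, the level averaged 193825 ± 7567 CPM in the α1ACT line and 199263 ± 13515 CPM in the vector line (SD, n = 3 each). Of single members, let-7i-3p averaged 24.5 ± 2.71 CPM in the α1ACT line and 18.6 ± 2.13 CPM in the vector line, without overlap (edgeR adjusted p = 0.495).

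**Figure D3:**
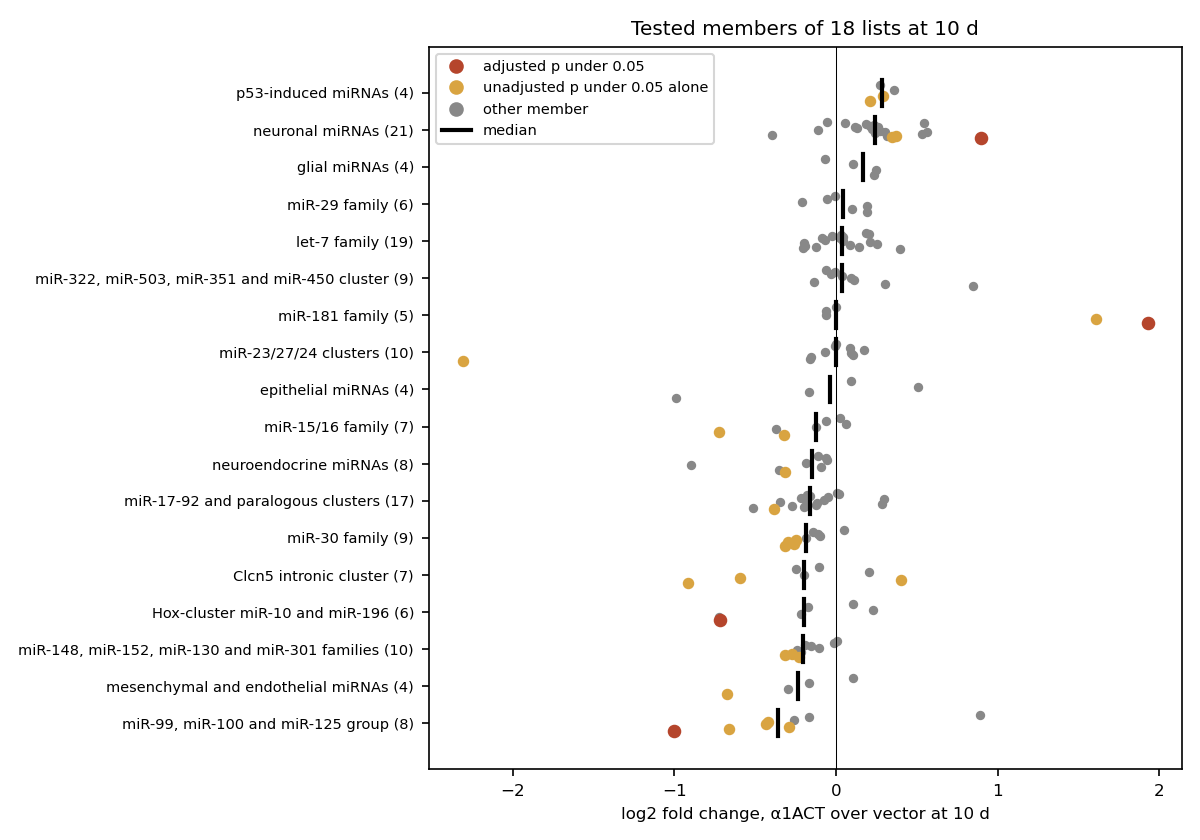
Log2 fold change of the α1ACT line over the vector line at 10 d (x) for each tested member of 18 lists with 3 or more tested members (y, number in brackets); black bars are medians. Medians run from -0.36 in the miR-99, miR-100 and miR-125 group to 0.28 in the p53-induced list, and red points, adjusted p under 0.05, occur in 4 lists.

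Among the abundant miRNAs, miR-30a-5p came closest to a call. It stood at 67879, 67553 and 68223 CPM in the α1ACT line, which were nearly equal, and at 87419.7, 77678 and 88604 CPM in the vector line. The groups did not overlap (log2 fold change -0.32, SE 0.0912, edgeR adjusted p = 0.0899). With the pair exchanged it shrank to -0.20 (edgeR adjusted p = 0.383). Its call appeared with DESeq2 (adjusted p = 0.0462), limma-voom (0.0378), the libraries of 10 d alone (0.0125) and both doubted libraries left out (-0.34, 0.0413). The 5p arms of the miR-30 family share a seed linked to epithelial and autophagy genes, and the 3p arms have other seeds. Of 9 tested entries of both arms 4 had an unadjusted p under 0.05 and a negative difference (9.67% of all tested), namely miR-30a-5p, miR-30d-5p, miR-30c-5p and miR-30c-2-3p. Of the 9 differences 8 were negative (51.7% of all tested), and the median log2 fold change was -0.19. miR-30d-5p averaged 14703 ± 531 CPM in the α1ACT line and 17606 ± 1197 CPM in the vector line, and miR-30c-5p averaged 5548 ± 536 and 6825 ± 439.5 CPM in the same order (SD, n = 3 each). Their edgeR adjusted p was 0.123 and 0.265. The summed level of miR-30a-5p, miR-30c-5p and miR-30e-5p, which share a seed, was 76253, 77283 and 77659 CPM in the α1ACT line and 98593, 88117 and 99882 CPM in the vector line (edgeR adjusted p = 0.0705). This is not the level of the whole family, since miR-30d-5p had no RefSeq sequence here and was left out.

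The other 9 of the 10 most abundant miRNAs were not called by edgeR's test. miR-22-3p stood at 77746, 73298 and 78058 CPM in the α1ACT line and at 66716, 62483 and 70016 CPM in the vector line, without overlap (log2 fold change 0.20, edgeR adjusted p = 0.409). miR-27b-3p averaged 116027 ± 5059 CPM in the α1ACT line and 129622 ± 1878 CPM in the vector line, also without overlap (log2 fold change -0.16, edgeR adjusted p = 0.519). miR-16-5p, miR-26a-5p, miR-182, miR-375-3p, miR-10b-5p, let-7f-5p and let-7i-5p overlapped between the lines, with log2 fold changes from -0.22 to 0.03.

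The hairpin of miR-708 is placed inside the neural cell-surface gene Tenm4, and its 2 arms showed large differences that did not pass. miR-708-5p stood at 20.5, 18.9 and 19.3 CPM in the α1ACT line and at 8.78, 4.13 and 9.69 CPM in the vector line. miR-708-3p stood at 22.99, 27.98 and 20.72 CPM in the α1ACT line and at 12.04, 7.91 and 14.25 CPM in the vector line. Neither arm overlapped, and vector replicate 2 was the lowest library for both. Log2 fold changes were 1.36 (SE 0.425, edgeR adjusted p = 0.123) and 1.06 (SE 0.383, edgeR adjusted p = 0.167). Without vector replicate 2 they were 1.14 and 0.93, and with the pair exchanged 1.36 and 1.20. Both arms were called in the Chimira table (edgeR adjusted p = 0.0393 for both) and also there with the pair exchanged (0.0314 for both).

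The p53-induced list had 4 tested members, all of them higher without overlap (10.8% of all tested) but none called, with a median log2 fold change of 0.28. miR-192-5p averaged 5398 ± 189 CPM in the α1ACT line and 4672 ± 314 CPM in the vector line (SD, n = 3 each; edgeR adjusted p = 0.269). Its neighbour within 10 kb, miR-194-5p, averaged 249.9 ± 22.4 CPM in the α1ACT line and 204 ± 11.7 CPM in the vector line (edgeR adjusted p = 0.269). For miR-34a-5p and miR-34c-5p, direct p53 targets with 1 seed, the log2 fold changes were 0.36 and 0.27.

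No member of the Clcn5 intronic cluster was called by edgeR's test, and the signs of the differences were mixed. miR-501-3p stood at 44.6, 35.5 and 35.7 CPM in the α1ACT line and at 72.5, 57.5 and 90.1 CPM in the vector line, without overlap (log2 fold change -0.92, edgeR adjusted p = 0.134). With the pair exchanged it was -1.57 (edgeR adjusted p = 0.0851). miR-532-5p, from a hairpin within 10 kb of it, stood at 876, 1008 and 845 CPM in the α1ACT line and at 422, 849.9 and 792 CPM in the vector line. Only vector replicate 1 was far below the rest (log2 fold change 0.40, edgeR adjusted p = 0.269). miR-362-5p had a log2 fold change of -0.60 with overlap. Of the 7 tested members 3 had an unadjusted p under 0.05, 1 positive and 2 negative (14.9% of all tested in either direction).

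miR-143-3p, a miRNA of smooth muscle and fibroblasts, stood at 345, 291 and 334 CPM in the α1ACT line and at 523, 389.9 and 634 CPM in the vector line. These did not overlap (log2 fold change -0.67, edgeR adjusted p = 0.134; 0.0851 with the pair exchanged and 0.0403 without both doubted libraries). Of the other mesenchymal and endothelial entries, miR-199a-3p (log2 fold change 0.11), miR-126a-3p (-0.30) and miR-126a-5p (-0.17) overlapped between the lines, and miR-145-5p had 0 counts. In bulk RNA, fewer cells of a type and less RNA per cell cannot be told apart.

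The remaining lists held no call by edgeR's test. In the miR-15/16 family, which restrains the cell cycle, miR-15b-3p averaged 10.5 ± 1.37 CPM in the α1ACT line and 17.5 ± 2.84 CPM in the vector line, and miR-195-3p averaged 207 ± 6.50 and 259 ± 8.72 CPM in the same order (SD, n = 3 each). Both are 3p arms and lack the seed that the 5p arms of this family share. They were without overlap, with edgeR adjusted p of 0.157 and 0.144, while their abundant relative miR-16-5p had a log2 fold change of -0.12. Summed over the 5 tested entries with the seed of miR-16-5p, miR-322-5p among them, the log2 fold change was -0.10 (SE 0.107, edgeR adjusted p = 0.684). In the growth-promoting miR-17-92 clusters 13 of 17 differences were negative (51.7% of all tested), with a median of -0.16. Of these 1, miR-20a-5p (-0.38), had an unadjusted p under 0.05 (9.67% of all tested in that direction). In the list that joins the miR-130 and miR-148 relatives 9 of 10 differences were negative (51.7% of all tested), with a median of -0.20. Of these 3 had an unadjusted p under 0.05 (9.67% of all tested in that direction). They were miR-301a-3p (-0.23), miR-301b-3p (-0.31) and miR-148b-5p (-0.27). All 8 tested neuroendocrine entries were negative (51.7% of all tested), with a median of -0.15, against -0.01 over all tested. Of the abundant ones, miR-375-3p kept its sign in 17 of 19 alternative fits and miR-182 in 15. The smallest p was that of miR-183-5p, at 3888 ± 159 CPM in the α1ACT line and 4849 ± 667 CPM in the vector line (SD, n = 3 each, edgeR adjusted p = 0.157).

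Outside these, miR-21-3p of the growth-factor-linked list stood at 71.3, 95.3 and 61.2 CPM in the α1ACT line and at 28.3, 55.4 and 59.6 CPM in the vector line (log2 fold change 0.67, edgeR adjusted p = 0.226). Vector replicate 1 was the lowest. miR-33-5p, from within the span of the sterol regulator Srebf2, stood at 95.4, 127.5 and 107.9 CPM in the α1ACT line and at 84.5, 84.0 and 82.9 CPM in the vector line (0.39, edgeR adjusted p = 0.216). miR-93-3p had a log2 fold change of -0.51 and hypoxia-linked miR-210-5p of 0.38, both with overlap. miR-23b-5p had 0, 3 and 0 counts in the α1ACT line and 5, 7 and 5 counts in the vector line, too few for a fold to be read. Members with the smallest p of their lists were miR-29c-5p (log2 fold change 0.19), miR-338-3p (0.23), miR-200b-3p (-0.99), miR-503-5p (0.85), miR-142-5p (0.61) and miR-499-5p (0.34). In the Chimira table miR-503-5p had -0.17. None of these had an unadjusted p under 0.05. Scarce among them were miR-200b-3p (means of 1.79 and 3.71 CPM in the α1ACT and vector lines), miR-503-5p (4.34 and 2.34) and miR-142-5p (6.83 and 4.38). The folds of these scarce miRNAs are uncertain. Medians near 0 were found for the miR-29 family (0.04, 6 tested) and the miR-322 and miR-503 cluster (0.04, 9 tested), and the glial list had a median of 0.17 (4 tested). The miR-23, miR-27 and miR-24 clusters split evenly, with 5 positive and 5 negative differences.

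Whether differences at 10 d were particular to that time was asked by setting the log2 fold change at 10 d against the mean of those at 6 h, 24 h and 3 d, which share no libraries with it. Of 269 miRNAs 0 passed edgeR's quasi-likelihood test (0%), and 17 had an unadjusted p below 0.05 (6.32%). DESeq2 called 1 and limma-voom 0. Lowest in p was miR-100-5p, whose log2 fold change was 0.54 at 6 h, -0.49 at 24 h and 0.24 at 3 d, against -1.002 at 10 d. The difference between 10 d and the other times was -1.10 (SE 0.251, edgeR adjusted p = 0.0602). It was called without vector replicate 2 and with the pair exchanged. Behind it, the level in the α1ACT line was 327 ± 56.9, 154.2 ± 36.6, 62.4 ± 13.8 and 97.4 ± 8.36 CPM from 6 h to 10 d (SD, n = 3 each). In the vector line it was 225 ± 38.2 (n = 2), 218.2 ± 25.8, 54.4 ± 7.25 and 195.2 ± 62.9 CPM (n = 3 each). At 10 d the lines did not overlap, and at 3 d their means differed by less than 1 SD of the α1ACT line.

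The next smallest p values of that test, all with edgeR adjusted p = 0.383, belonged to miR-532-5p, miR-125b-5p, miR-99b-5p and miR-33-5p. For miR-125b-5p the log2 fold change was 0.78 at 6 h and -0.42 at 10 d, and for miR-99b-5p 0.67 and -0.66. For miR-532-5p it was negative at 6 h, 24 h and 3 d (-0.36, -0.21 and -0.20) and 0.40 at 10 d. miR-181a-5p was alike at all times (1.83, 2.11, 1.78 and 1.93), and its difference between 10 d and the others was 0.02 (SE 0.453). For miR-9a-5p the values were 0.35, 0.61, 0.92 and 0.90, and for miR-10a-5p -0.27, -0.57, -0.36 and -0.72. Of the 40 miRNAs with an unadjusted p under 0.05 at 10 d, 31 had the same sign at 6 h, 33 at 24 h and 28 at 3 d. Over all 269 tested miRNAs the sign was shared by 63.2%, 65.4% and 62.5% at these times.

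**Figure D4:**
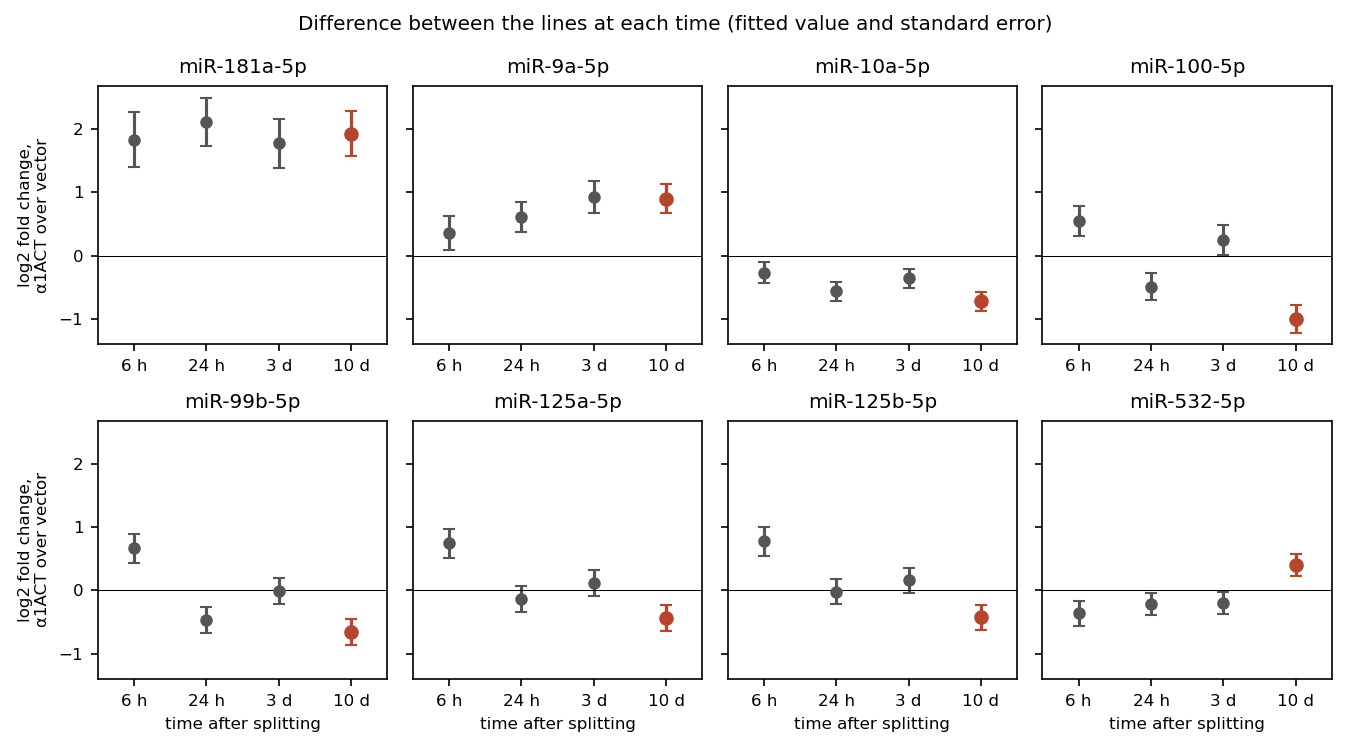
Log2 fold change of the α1ACT line over the vector line (y) by time (x; 6 h to 10 d) for 8 miRNAs, as fitted values with standard errors; 10 d is red. miR-181a-5p stays between 1.78 and 2.11, whereas miR-125a-5p, miR-100-5p, miR-125b-5p and miR-99b-5p are above 0 at 6 h and below 0 at 10 d.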

How the data were processed

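A miRNA-enriched RNA fraction was purified and made into Illumina small RNA libraries, per the labels' protocols. The authors deposited 2 tables of raw counts for mature miRNAs, whole numbers without normalization; their names point to sRNAbench (413 entries, used here) and Chimira (627 entries, an alternative). edgeR is named in the submitters' processing notes; which aligner, build and versions were used is not given here. Columns named control were taken as the vector line and WT as the α1ACT line; 12 further columns of each table match no sample and were not used. A nameless sRNAbench entry with 0 counts was left out.

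All 23 libraries were fitted with 1 mean per group (edgeR 4.0.16, R 4.3.3; filterByExpr, TMM, robust quasi-likelihood), with calls at a Benjamini-Hochberg adjusted p under 0.05. CPM are TMM-scaled. Standard errors come from the log2 fold change and its F value. Counts cover sampling of reads without molecular identifiers. The chi-square per degree of freedom between replicates of 1 line at 10 d was at least 46.7, so none of these was a copy of another. Pairs across the lines or with other times were not tested in this way. The fits were tested on simulated counts.

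Named miRNAs were all calls, the 10 largest and 10 smallest log2 fold changes at a mean of at least 10 CPM, the 10 most abundant, up to 4 members of each list with the smallest p, the 5 smallest interaction p, and other arms and seed relatives of calls. Members, lists and tests were chosen with earlier results of these data known. The let-7e, miR-34, miR-30e, miR-125a-3p, miR-126a, miR-199a, miR-615, miR-125b-2-3p, miR-132-3p, miR-7a, miR-145, miR-223 and miR-451 entries were named after their values were seen. So were the miR-128, miR-132-5p and miR-218a-1-3p entries. Sequences, hairpin neighbours and spans come from RefSeq (GRCr8), and spans disregard strand. Alternatives included DESeq2 1.42.0 and limma-voom (limma 3.58.1).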

Additional observations from a re-analysis of the deposited data

How the results depend on the processing

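The 4 calls of edgeR's test at 10 d (2 higher, 2 lower) were recounted under 19 alternatives. There were 11 calls in the Chimira table (5 higher, 6 lower; 3 of the same miRNAs, since miR-9a-5p was not tested there) and 6 there with the pair of vector columns exchanged (4 higher, 2 lower). Exchanging the pair in the sRNAbench table gave 3 calls, 1 of them higher, as did upper-quartile factors (3, with 1 higher). DESeq2 gave 10 (5 higher, 5 lower; 1 adjusted p was not given), limma-voom 7 (4 higher, 3 lower) and the libraries of 10 d fitted alone 11 (4 higher, 7 lower). Leaving out each library of 10 d in turn gave 0 to 5 calls, 0 to 3 higher and 0 to 2 lower. Leaving out both doubted vector libraries, an alternative added after the data were seen, gave 7 (3 higher, 4 lower). Relative log expression factors, library totals, no low-count filter and a mean of at least 10 CPM each kept the 4. With library totals the median log2 fold change of all tested miRNAs moved to 0.11; relative to it, the 4 kept their directions. The difference between 10 d and the other times was called for 0 miRNAs, and for 1, miR-100-5p, in the Chimira table, with the pair exchanged, with upper-quartile factors, library totals or DESeq2 and without both doubted libraries; leaving out single libraries gave 0 to 1. The cause of these changes was not tested.

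A fit with a replicate block gave 2 calls, 1 higher and 1 lower, miR-181a-5p and miR-10a-5p. The numbers share no stated batch. Deviations of same-numbered libraries correlated at -0.475, -0.403 and 0.517, and those of α1ACT replicate 2 and vector replicate 1 at 0.671. Deviations from a mean of 3 libraries are tied to each other, so these values cannot decide whether libraries were paired. Over the 19 alternatives miR-181a-5p was called in 18 (log2 fold change 1.78 to 2.24), miR-10a-5p in 16 (-0.78 to -0.59) and miR-100-5p in 14 (-1.22 to -0.84); miR-9a-5p was called in 10 of the 17 that tested it (0.79 to 1.05). No named miRNA that was called changed sign. Of those not called, miR-708-5p and miR-708-3p were called in 5 alternatives each, miR-143-3p, miR-30a-5p and miR-138-5p in 4 each, miR-99b-5p in 2, and miR-125a-5p, miR-125b-5p, miR-501-3p, miR-362-5p, miR-181b-5p and miR-23b-5p in 1 each. List medians were recomputed too: 268 values stayed within the SD over the α1ACT replicates and 74 moved beyond it. The medians of the p53-induced list (0.24 to 0.40) and the neuroendocrine list (-0.24 to -0.03) moved in 11 of 19 alternatives each, with their signs kept. That of the miR-17-92 clusters moved in 8 (-0.25 to -0.05). Depth limits the scarce miRNAs: the lowest vector library held 28 counts of miR-181a-5p, and a common biological coefficient of variation of 16.1% limits all.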

Other observations

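No entry of the sRNAbench table had counts in all 3 libraries of one line and in 0 of the other at 10 d. The entries that were not tested held at most 0.00667% of the counts of a library of 10 d. Of the 305 tested Chimira entries, 13 have no sRNAbench entry of that name; 0 of them were called at 10 d by edgeR's test, with the columns as named or exchanged, and 1 had an unadjusted p under 0.05. Seed groups, a summed table added after the data were seen, cover only the 248 of 269 tested miRNAs with a RefSeq sequence. Of 198 groups 3 were called by edgeR's test, those of miR-10a-5p, miR-9a-5p and miR-708-5p, each with 1 such member. The more abundant miR-10b-5p, whose annotated sequence begins further along, is not in the group of miR-10a-5p. Its own group was not called (log2 fold change -0.22, edgeR adjusted p = 0.598), and a group joining both was not tested. The 27 groups of 2 or more members held 0 calls.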
